A study of Mus musculus with 18 samples.

Results

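The cytosolic ribosomal protein genes were followed in mouse livers after myocardial infarction (MI). They were picked by symbol: every Rpl and Rps gene whose name has the form of a ribosomal protein, without entries marked as pseudogenes and without the Rps6k kinase genes. This gave 89 of the 50600 genes in the table of the 1 day livers, 36 named for the small subunit and 53 for the large subunit, and 85 of the 17127 genes in the table of the 12 hour livers. Of these, 84 and 83 had enough reads to be tested, among 14266 and 12548 genes tested. The members not tested at 1 day were Rps3a3, Rps12l1, Rpl3l, Rpl10l and Rpl39l, and those not tested at 12 hours were Rpl10l and Rpl39l.

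The cytosolic ribosome translates messenger RNA into protein. Its small subunit reads the message and its large subunit joins the amino acids, and each holds 1 copy of most ribosomal proteins beside the ribosomal RNA. Most ribosomal protein messages begin with a C and a run of pyrimidines, the 5′ terminal oligopyrimidine (TOP) tract, through which the mTOR pathway sets how strongly they are translated. The liver makes most of the proteins of blood plasma, including the acute phase proteins secreted in inflammation, so ribosomal protein messages are abundant in hepatocytes.

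RNA was sequenced from 18 livers of C57BL/6 mice at postnatal week 12. In the first experiment, livers were taken 1 day after sham operation or MI, made by tying off the left anterior descending branch of the coronary arteries for good, from littermate controls (LC; floxed mineralocorticoid receptor alleles without Cre, given as wild type in the labels) and from hepatocyte mineralocorticoid receptor knockout mice (HMRKO; the same floxed alleles with Cre under the albumin promoter, given as MR-/- in the labels). In the second, livers were taken 12 hours after sham operation or MI from C57 mice without engineered alleles. Each of the 6 groups held 3 livers, and nothing in the labels ties a replicate number to a litter or a day, so p-values measure the spread between these livers. Operation and time were taken from the study design where the labels lack them: an operation for the 1 day MI livers, and a time for all livers.

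The 1 day libraries held 19098700 to 28945500 counts and were similar between groups. At 12 hours the sham libraries held 1361510, 2064580 and 2255780 counts and the MI libraries 16745600, 19190400 and 18584900, so depth and operation cannot be told apart there. Nr3c2, the gene of the mineralocorticoid receptor, had 5.6, 6.70 and 4.71 CPM (counts scaled to a common library total) in LC + sham and 2.93, 3.76 and 2.55 in HMRKO + sham, and 3.56, 2.13 and 1.90 in LC + MI against 0.895, 1.10 and 0.913 in HMRKO + MI, lower in every HMRKO liver than in any LC liver with the same operation. Transcripts of the mitochondrial genome took 18.9% of counts in LC + MI liver 1 and 15.6% in HMRKO + sham liver 2, against 7.53 to 12.3% in the other 1 day livers. The numbers of members called are also given without these libraries. Values by coding length and the lists of genes around the ribosome were not recomputed without them. All 8 hepatocyte markers had counts in every group, and in bulk tissue fewer cells of a type and less RNA per cell cannot be told apart. The summed CPM of 9 neutrophil markers, none at 0 in any group, was 445 to 2091 in LC + sham, 4456 to 5166 in LC + MI, 768 to 1170 in HMRKO + sham, 4969 to 8993 in HMRKO + MI, 728 to 1064 in sham at 12 hours and 9783 to 19036 in MI at 12 hours. Such a sum is led by its most abundant markers and does not stand for each of them. After MI the log2 fold changes of 6 tested ran from 0.60 to 1.99 in LC and from 1.55 to 4.72 in HMRKO. At 12 hours those of 8 tested ran from -3.49 to 4.44, with 6 called higher and 1 lower. Cxcr2 had 96.0, 102 and 87.2 CPM in sham and 10.5, 8.01 and 6.94 in MI there. For 10 lymphocyte markers the sum was 3.29 to 9.19 in LC + sham, 2.09 to 2.66 in LC + MI, 3.56 to 5.71 in HMRKO + sham, 1.02 to 1.45 in HMRKO + MI, and 6.72 to 10.4 in sham and 1.75 to 3.04 in MI at 12 hours. The part of either cell type in the values of ribosomal protein genes was not tested.

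The start of the gene is where the TOP tract lies, and RefSeq start sites on the mouse build GRCm38.p6 were found for 65 of the 90 members listed in either table. The windows shown here belong to members called lower and members called higher in HMRKO + MI than in LC + MI, and to a pair of members called higher after MI both in HMRKO livers and at 12 hours. Each runs from 20 bases before the annotated start to 10 bases after it, in the direction of transcription, with the longest run of at least 5 pyrimidines led by a C in capitals. Rpl35 lies at chr2:39005122-39005151 on the minus strand, Rps15 at chr10:80292411-80292440 on the plus strand, Rpl38 at chr11:114668560-114668589 on the plus strand and Rpl31 at chr1:39367831-39367860 on the plus strand. The higher members are Rpl4 at chr9:64173367-64173396 on the plus strand and Rpl9 at chr5:65391422-65391451 on the minus strand. Rplp0 lies at chr5:115559447-115559476 on the plus strand and Rps3 at chr7:99483700-99483729 on the minus strand.
Rpl35: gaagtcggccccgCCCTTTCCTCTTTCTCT
Rps15: gCCCTCCCggcagagctcgcgataactgcg
Rpl38: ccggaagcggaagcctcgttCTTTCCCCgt
Rpl31: caCCTCTTCCTCCTCgcctccccgtgaccc
Rpl4: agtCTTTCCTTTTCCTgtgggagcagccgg
Rpl9: gcgacacgcagggccctgacggattacaag
Rplp0: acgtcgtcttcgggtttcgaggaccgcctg
Rps3: gaacacttgcaagggtcgccgcgctgcgcg

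The run was 18 bases long in Rpl35, where it goes on past the end of the window, 13 in Rpl31 and Rpl4, 8 in Rpl38 and 7 in Rps15, and the windows of Rpl9, Rplp0 and Rps3 held none, which says only that these letters are not at the annotated start. A run of at least 5, a C followed by at least 4 more bases that are C or T, began from 20 bases before to 5 bases after the start, on the transcribed strand, at 45 of 77 start sites of members (58.4%) and at 35.1% of all 32851 start sites in the RefSeq table. A run of at least 8 was found at 39% of the members' start sites and at 9.39% of all. Among the members called lower in HMRKO + MI than in LC + MI, 5 of 8 start sites held a run of at least 5, and among those called higher 1 of 2 did. Members of both directions thus held such runs, but not every run lay in the message. Counted from the annotated start, the run began at -7 in Rpl35, 0 in Rpl38, -19 in Rps15, -18 in Rpl31 and -17 in Rpl4. Those of Rps15, Rpl31 and Rpl4 ended before the start, so by this annotation these longest runs are not part of the message. The counts of start sites include such runs. Only the longest run is marked: the window of Rpl31 also holds a shorter run of at least 5, in small letters, that crosses the annotated start.

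Levels between genes can be compared only per length, which the 12 hour table allows through TPM, a transcript level scaled for gene length and library total. Over the 83 members tested, the group mean ranged from 15.8 to 5789 TPM with a median of 509 in sham, and from 0.373 to 1987 with a median of 572 in MI, where the median over all genes tested was 8.34 and 5.68. The members with the highest mean TPM over the 6 livers were Rpl38, Rpl28, Rpl35, Rpl10, Rps2 and Rps15. Rpl38, a small protein at the surface of the large subunit, had 8542, 4391 and 4434 TPM in sham and 1298, 938 and 859 in MI. Rpl28, also of the large subunit, had 3777, 2987 and 3059 TPM in sham and 1819, 1305 and 1195 in MI. Rpl10, which completes the large subunit late in its assembly, had 1239, 1095 and 1016 TPM in sham and 2119, 1992 and 1850 in MI. So the order of levels differed between the operations: Rpl38 led in sham and Rpl10 in MI. Rps2, of the small subunit, lay at 1169 to 1383 TPM in sham and 1528 to 1665 in MI. Rpl35 stood at 1809 to 2612 TPM in sham and 979 to 1334 in MI, and Rps15 at 1444 to 1885 and 771 to 1063. The order also rests on the lengths the authors used: Rps15a had 9.04 times and Rps20 4.78 times as many estimated counts per TPM as the median member.

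**Figure D1:**
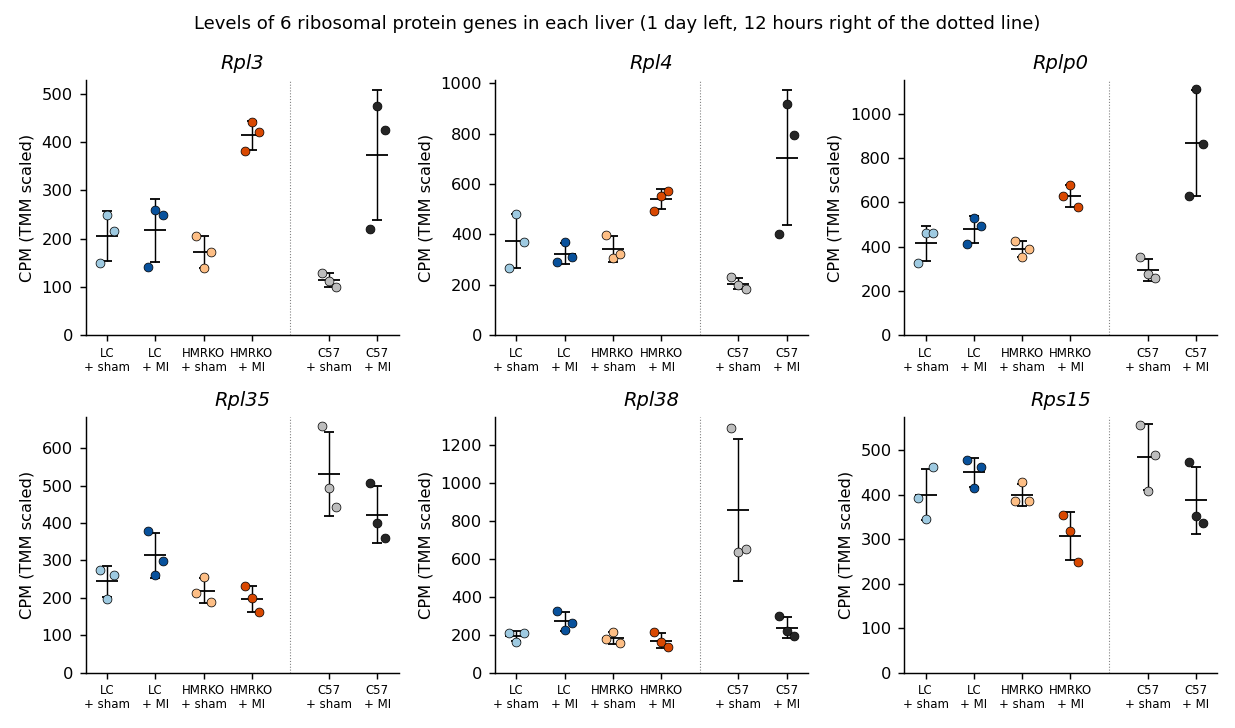
CPM scaled by TMM (y axis, from 0, with its own range in each panel) in each liver for 6 members, with points for livers, bars for the mean and error bars for the SD of 3 livers; the 1 day and 12 hour groups were counted in separate tables and are not to be compared across the dotted line. Rpl3, Rpl4 and Rplp0 were highest in all 3 HMRKO + MI livers among the 1 day groups, and Rpl35, Rpl38 and Rps15 were lower there than in LC + MI.

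The first comparison asked what MI did to these genes in control livers at 1 day. No ribosomal protein gene passed an adjusted p of 0.05 in LC + MI versus LC + sham by edgeR, where 2.68% of all genes were called higher and 2.33% lower. The values nevertheless leaned one way: 76 of 84 members (90.5%) had a log2 fold change above 0, against 51.0% of all genes, and the median was 0.20 against 0.01. At an unadjusted p under 0.05 there were 13 members, all of them higher (15.5%, against 21.9% of all genes in either direction). DESeq2 called 3 higher and 0 lower, against 4.54% and 4.63% of all genes. In 16 members all 3 MI livers lay above all 3 sham livers (19%, against 12.6% of all genes), and in 1, Rpl41, all lay below. The summed CPM of all members was 23778, 23635 and 27307 in LC + sham and 27829, 28246 and 30159 in LC + MI, so the groups did not overlap.

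Rpl27, of the large subunit, had 252, 213 and 259 CPM in LC + sham and 375, 341 and 357 in LC + MI. All MI livers were above all sham livers, and the log2 fold change was 0.57 (standard error 0.15, edgeR adjusted p = 0.0510). Leaving out 1 library moved it between 0.49 and 0.62, and its adjusted p over all alternatives ran from 0.00355 to 0.176. Rpl12, which sits at the base of the ribosomal stalk, had 358, 305 and 417 CPM in sham and 475, 455 and 511 in MI (log2 fold change 0.42, standard error 0.15, edgeR adjusted p = 0.136). Rps18, in the head of the small subunit, had 497, 426 and 586 CPM in sham and 696, 627 and 700 in MI (0.42, standard error 0.16, edgeR adjusted p = 0.136). Both had groups that did not overlap and neither passed the test. Without LC + MI liver 1, the library with the highest mitochondrial share, 2 members were called higher (3.87% of all genes were). Without HMRKO + sham liver 2, HMRKO + MI liver 1 or HMRKO + MI liver 3, which only set the spread here, 1 was (2.70%, 2.52% and 2.27% of all genes).

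**Figure D2:**
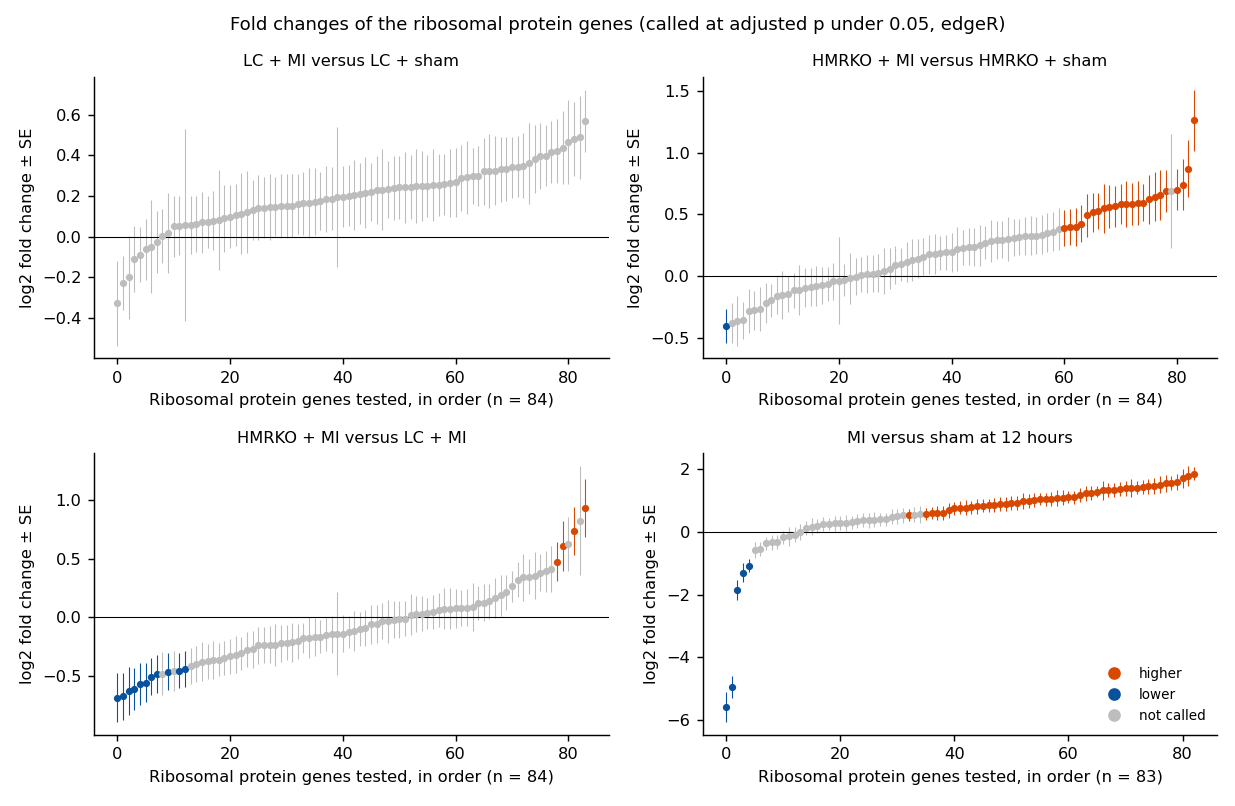
Log2 fold change (y axis, with bars of 1 standard error, a different range in each panel) of every member tested in 4 comparisons, ordered from lowest to highest along the x axis and coloured by whether edgeR called it at an adjusted p under 0.05. None was called in LC + MI versus LC + sham, 23 were called higher and 1 lower in HMRKO + MI versus HMRKO + sham, 4 above and 11 below LC + MI in HMRKO + MI, and 49 higher and 5 lower at 12 hours. Scaling to total counts gave 18 and 12 at 12 hours, against 16.9% and 44.8% of all genes.

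In HMRKO livers 23 of 84 ribosomal protein genes (27.4%) rose at 1 day after MI and 1 fell (1.19%), where 22.0% of all genes were called higher and 21.7% lower. In the fit of all livers the share called higher was thus near the background, and the share called lower was below it. The median log2 fold change of the members was 0.23, against 0.01 over all genes, and 60 of 84 were above 0 (71.4%, against 50.2% of all genes). At an unadjusted p under 0.05 there were 30, against 51.5% of all genes. In 30 members all MI livers were above all sham livers and in 4 all were below, 35.7% and 4.76%, against 28.2% and 27.5% of all genes. The members that rose had log2 fold changes from 0.39 to 1.26, so only Rpl3 passed 2-fold, which 9.06% of all genes did upward. Scaling by total counts alone, in place of TMM, shifted the median of all genes to -0.13. It gave 4 members higher and 5 lower, against 14.1% and 26.3% of all genes, while the members' median stayed 0.22 above that of all genes under both.

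Rpl3, which lies at the peptidyl transferase centre of the large subunit, had 205, 139 and 173 CPM in HMRKO + sham and 380, 440 and 420 in HMRKO + MI. The groups were far apart, and the log2 fold change was 1.26 (standard error 0.25, edgeR adjusted p = 0.00157). Rpl9, at the base of the stalk, had 142, 110 and 113 CPM in sham and 215, 194 and 185 in MI (0.70, standard error 0.17, edgeR adjusted p = 0.00466). The stalk itself, which binds translation factors, is made of Rplp0, Rplp1 and Rplp2. Rplp0 had 424, 354 and 388 CPM in sham and 627, 679 and 580 in MI, with no overlap (0.69, standard error 0.17, edgeR adjusted p = 0.0063). Rplp2 rose by 0.64 (standard error 0.20, edgeR adjusted p = 0.0189), and Rplp1 stood at 0.16 and was not called (adjusted p = 0.421). Rpl5 and Rpl11 carry the 5S ribosomal RNA into the ribosome and can also bind the p53 inhibitor Mdm2. Rpl5 had 217, 131 and 165 CPM in sham and 316, 326 and 295 in MI and rose by 0.87 (standard error 0.23, edgeR adjusted p = 0.00888). Rpl11 had 412, 403 and 375 CPM in sham and 449, 380 and 329 in MI, which overlap, with a log2 fold change of -0.04 (adjusted p = 0.844). The partners of the stalk and of the 5S particle were therefore not all called.

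Of 34 small subunit members tested, 8 rose and 1 fell, where 22.0% of all genes rose and 21.7% fell. Rps3, at the entry of the messenger RNA channel, had 197, 178 and 162 CPM in HMRKO + sham and 275, 276 and 262 in HMRKO + MI (log2 fold change 0.60, standard error 0.15, edgeR adjusted p = 0.007). Rps27a, made as a fusion to ubiquitin, had 259, 224 and 202 CPM in sham and 455, 377 and 314 in MI (0.74, standard error 0.21, edgeR adjusted p = 0.0118). Both were higher in every MI liver than in any sham liver. Rps6, the small subunit protein that S6 kinase phosphorylates, had 479, 387 and 364 CPM in sham and 700, 609 and 507 in MI and rose by 0.56 (edgeR adjusted p = 0.019). It is named here after its values were seen. The member that fell was Rps27l, a paralog of Rps27 known as a target of p53, with 160, 167 and 154 CPM in sham and 130, 111 and 122 in MI (-0.41, standard error 0.14, edgeR adjusted p = 0.0292). The number that rose depended on single libraries: it was 8 without HMRKO + sham liver 2, which had the high mitochondrial share, 7 without HMRKO + sham liver 3, 9 without HMRKO + MI liver 1 and 13 without HMRKO + MI liver 2. No member was called lower without any 1 of the 3 sham livers, or without HMRKO + MI liver 2 or 3. There were 3 without HMRKO + MI liver 1 and 2 without LC + MI liver 1.

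HMRKO + MI against LC + MI asked how the infarcted livers of both genotypes differed, and here the members went in both directions. Of 84 members, 4 were higher in HMRKO + MI (4.76%) and 11 lower (13.1%), where 14.6% of all genes were called higher and 16.2% lower, so neither share was above the background. The median was -0.12, against -0.01 over all genes, and 32 members were above 0 (38.1%, against 49.5% of all genes). The median was -0.0067 without HMRKO + MI liver 3, where that of all genes was -0.01, and it was -0.06 without LC + MI liver 3 and -0.18 without HMRKO + MI liver 1. At an unadjusted p under 0.05, 8 were higher and 22 lower, against 42.9% of all genes in either direction. None passed 2-fold, which 4.58% of all genes did upward and 7.77% downward. In 9 members all HMRKO livers were above all LC livers and in 25 all were below, 10.7% and 29.8%, against 24.1% and 24.7% of all genes. The summed CPM of HMRKO + MI was 29791, 27277 and 23315, which overlaps that of LC + MI.

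The 4 higher members were Rpl3, Rpl4, Rpl9 and Rps4l. Rpl3 had 142, 260 and 249 CPM in LC + MI against the HMRKO + MI values above, a log2 fold change of 0.93 (standard error 0.25, edgeR adjusted p = 0.014). Rpl4, whose loop lines the exit tunnel of the nascent protein, had 291, 372 and 310 CPM in LC + MI and 494, 552 and 572 in HMRKO + MI (0.73, standard error 0.20, edgeR adjusted p = 0.018). Every HMRKO + MI liver was above every LC + MI liver for both. Rpl9 had 117, 151 and 160 CPM in LC + MI (0.47, standard error 0.17, edgeR adjusted p = 0.0455), and its call was lost in 13 of 21 alternatives. Rps4l had only 15.8, 15.4 and 12.9 CPM in LC + MI and 26.3, 22.5 and 18.5 in HMRKO + MI (0.61, standard error 0.21, edgeR adjusted p = 0.0433), and reads it shares with near-identical copies such as Rps4x cannot be assigned further.

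The lower members included Rpl35, Rpl36, Rps15, Rpl38, Rpl31, Rpl26, Rpl28 and Rpl24, which had the smallest p, and Rpl36al, and the 11 had log2 fold changes from -0.68 to -0.44 and edgeR adjusted p from 0.023 to 0.0431. Rpl35, which with Rpl26 and Rpl31 lies around the exit of the tunnel where chaperones and the signal recognition particle bind, had 380, 262 and 299 CPM in LC + MI and 230, 199 and 162 in HMRKO + MI. Its log2 fold change was -0.67 (standard error 0.20). Rpl36 had 403, 324 and 367 CPM in LC + MI and 287, 234 and 197 in HMRKO + MI (-0.61, standard error 0.18). Rps15, in the head of the small subunit, had 477, 414 and 461 against 354, 318 and 249 (-0.55, standard error 0.16). Rpl38 had 323, 227 and 261 against 212, 161 and 133 (-0.68, standard error 0.21). None of these overlapped between the genotypes. Against their own sham livers, however, none of the 11 passed the test in HMRKO, where they lay between -0.38 and -0.07, and in LC after MI they lay between 0.12 and 0.49, also not called. The comparisons share livers, so these values are given side by side only. All 11 calls were lost without LC + MI liver 1, and likewise without HMRKO + MI liver 2 or HMRKO + MI liver 3. The share of all genes called lower was then 9.40%, 11.2% and 11.8%. Without any other 1 library 3 to 14 members were called lower, against 11.4 to 16.8% of all genes. The number called higher was 1 without LC + MI liver 1, where 8.21% of all genes were. It was 2 without LC + sham liver 3, LC + MI liver 2 or 3, or any 1 HMRKO + MI liver, against 9.84 to 13.1% of all genes.

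The difference between the responses of the genotypes was tested as an interaction. Of 84 members, 1 passed upward and 0 downward, where 6.74% of all genes passed upward and 8.50% downward, and at an unadjusted p under 0.05 there were 7 upward and 5 downward, against 33.3% of all genes in either direction. DESeq2 gave 5 upward and 0 downward, against 8.83% and 11.4% of all genes. The member was Rpl3, with a log2 fold change of 0.08 in LC (standard error 0.24) and 1.26 in HMRKO, a difference of 1.18 (standard error 0.35, edgeR adjusted p = 0.0381). The difference stayed between 0.95 and 1.36 without any 1 library. Its adjusted p ranged from 0.0107 to 0.0943 over all alternatives, and the call was lost without LC + sham liver 2 or 3, LC + MI liver 1, HMRKO + sham liver 2 or 3, or any 1 of the HMRKO + MI livers. The next members were Rpl4 (0.86, adjusted p = 0.0609) and Rpl5 (0.92, adjusted p = 0.0704), and the median over members was 0.02.

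The members called in HMRKO + MI versus LC + MI were also compared by coding length, which the rule for choosing members did not use. All 11 members lower in HMRKO + MI than in LC + MI had coding lengths of 210 to 480 nucleotides, and the 3 higher ones with a known length had 576 to 1257. Of 67 members not called there, 37 were also of up to 500 nucleotides. Over 81 members with a length, Spearman's rho between coding length and log2 fold change was 0.47 in that comparison, against 0.04 over 12670 other genes. By length, the median log2 fold change was -0.22 in 18 members of up to 350 nucleotides, -0.21 in the next 30 of up to 500, -0.01 in the next 16 of up to 650 and 0.21 in 17 longer ones. Other genes in the same length classes had medians of -0.24, -0.13, -0.02 and 0.02, so the short members were near other short genes. The long members lay above the other genes over 650 nucleotides, but that class has no upper limit and members reached only 1257. Lengths were thus not matched there, nor in the rho over other genes. In HMRKO + MI versus HMRKO + sham rho was 0.45, the medians were 0.07, 0.23, 0.31 and 0.53, and the 23 members that rose ran from 345 to 1257 nucleotides, 11 of them over 650 and 8 up to 500. In LC + MI versus LC + sham rho was -0.21 and the medians were 0.23, 0.25, 0.23 and 0.11. These are correlations across genes of the same livers, not across replicates, and are given as descriptions.

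The same pattern was seen liver by liver as the mean log2 CPM of the 17 long members less that of the 18 short ones. It was 0.38, 0.63 and 0.50 in LC + sham, 0.23, 0.55 and 0.45 in LC + MI and 0.54, 0.26 and 0.47 in HMRKO + sham. In HMRKO + MI it was 0.77, 0.88 and 0.93, above every other 1 day liver. The lowest values of their groups, 0.23 and 0.26, were in LC + MI liver 1 and HMRKO + sham liver 2, the libraries with the highest mitochondrial shares. RNA quality was not given for these livers, and the part of RNA quality or of library preparation in this gap was not tested.

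**Figure D3:**
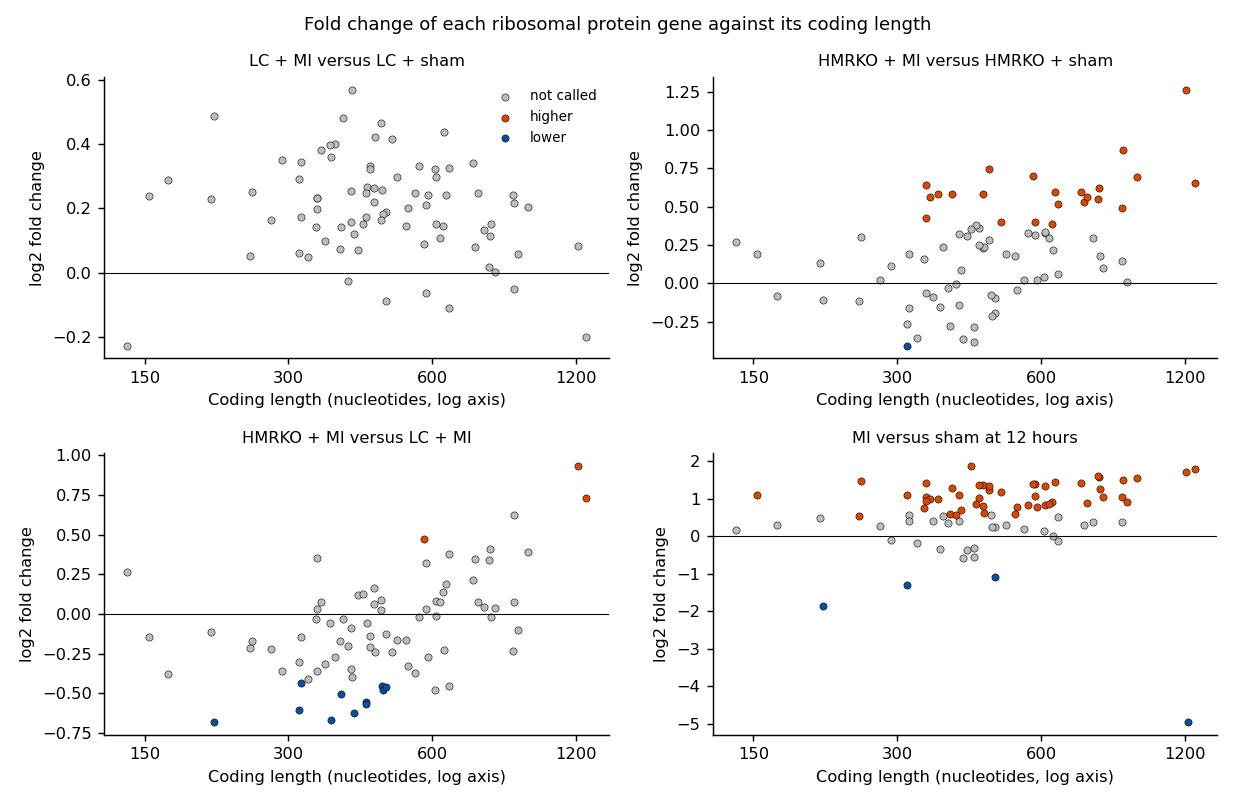
Log2 fold change (y axis, its own range in each panel) of each member against its coding length in nucleotides (x axis, log scale) in 4 comparisons, coloured by edgeR call. The members called lower in HMRKO + MI versus LC + MI all lie at 480 nucleotides or less, and in both comparisons of HMRKO + MI the members over 650 nucleotides had the highest median (0.21 and 0.53). At 12 hours the lowest point is Rpl3l, at 1221 nucleotides, and calls there depend on the scaling.

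**Figure D4:**
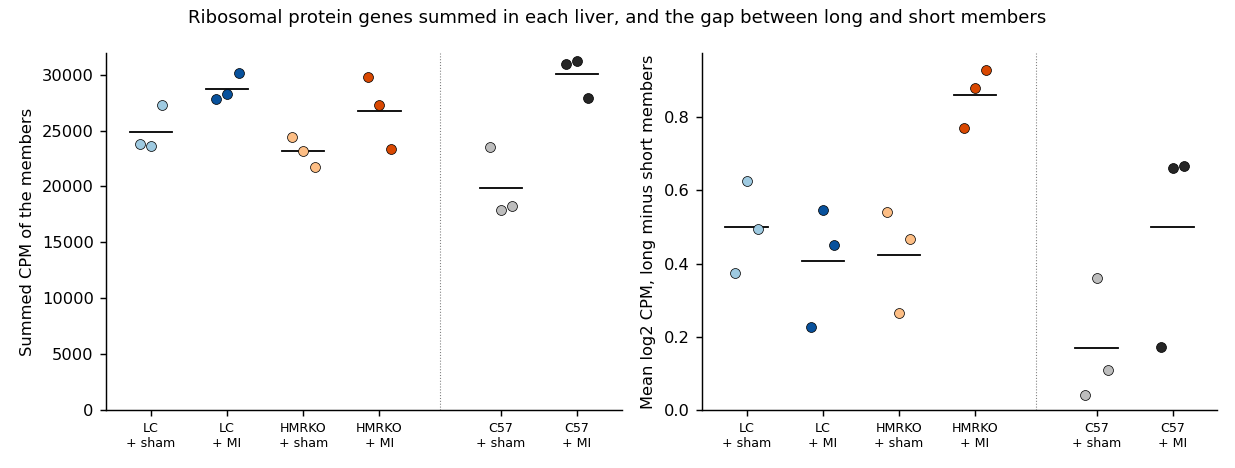
Left, summed CPM of all members (y axis from 0) and right, mean log2 CPM of long members (over 650 nucleotides) less that of short members (up to 350 nucleotides), with 1 point per liver and a line at the mean of 3 livers; the dotted line separates 1 day and 12 hour livers. The sums of LC + MI lie above those of LC + sham, and the 3 HMRKO + MI livers have the widest gaps between long and short members among the 1 day livers.

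Without infarction the genotypes were hard to tell apart in these genes. In HMRKO + sham versus LC + sham edgeR and DESeq2 called 0 members, where 0.0210% of all genes were called higher and 0.0140% lower, and 0 members had an unadjusted p under 0.05, against 5.87% of all genes. The values leaned down: 7 of 84 were above 0, against 48.1% of all genes, and the median was -0.10 against -0.01. The members with the smallest p were Rpl41, Rpl10a and Rpl22l1. Rpl41, which encodes the smallest ribosomal protein, had 232, 261 and 267 CPM in LC + sham and 229, 205 and 211 in HMRKO + sham, which do not overlap (-0.24, standard error 0.13, edgeR adjusted p = 0.908). Rpl10a stood at -0.25 and Rpl22l1 at -0.24, each with an adjusted p of 0.92 and groups that overlapped. Without LC + sham liver 3, which had the highest sum of its group, the median over members was -0.02.

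At 12 hours after MI most ribosomal protein genes were higher than after sham. Of 83 members 49 rose (59.0%) and 5 fell (6.02%), where 34.3% of all genes were called higher and 32.0% lower, and 29 rose past 2-fold, with 25.5% of all genes past it. The median log2 fold change was 0.77, against 0.11 over all genes, and 69 of 83 were above 0 (83.1%, against 52.5%). In 54 members all MI livers lay above all sham livers and in 7 all lay below, 65.1% and 8.43%, against 37.8% and 34.0% of all genes. The sum over members was 23495, 17918 and 18244 CPM in sham and 30956, 31251 and 27886 in MI.

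How many rose depended on the scaling. TMM factors were 1.23 to 1.28 in sham and 0.756 to 0.851 in MI. Without them, on total counts alone, 18 members were higher and 12 lower, with a median of 0.13. Of all genes, 16.9% were then called higher and 44.8% lower. The limma test on log2(TPM + 1) gave 23 higher and 12 lower with a median of 0.16, against 18.1% and 43.2% of all genes and a median of -0.37. Total counts shifted the median of all genes from 0.11 to -0.54, and under both scalings the members' median lay 0.66 above that of all genes. As a plain share of counts the members took 2.93, 2.19 and 2.33% in sham and 2.63, 2.36 and 2.2% in MI, which overlap. A single gene, Gm20594, took 1.79 to 3.66% of counts in sham and 0.0167 to 0.0659% in MI. Scaling without it left 49 members higher and 6 lower, against 34.3% and 32.0% of all genes. With the MI libraries thinned to the depth of sham, 41 were higher and 7 lower, against 31.2% and 33.3% of all genes. Of 8 hepatocyte markers 7 were also called higher at 12 hours, with a median of 1.79, and 6 of 8 neutrophil markers tested were higher and 1 lower. The part of either cell type in the members' values was not tested.

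The 8 higher members with the smallest p kept their direction and their call under all 17 alternatives. Rps23, which helps to keep decoding accurate, had 97.8, 99.6 and 104 CPM in sham and 363, 392 and 341 in MI. Its groups were far apart, with a log2 fold change of 1.86 (standard error 0.20, edgeR adjusted p = 2.55e-05) and of 1.21 on total counts. Rps3a1, of the small subunit, had 158, 140 and 152 CPM in sham and 385, 503 and 444 in MI (1.57, standard error 0.21, edgeR adjusted p = 0.000111). Rplp2, of the stalk, had 72.5, 56.2 and 66.4 CPM in sham and 159, 192 and 166 in MI (1.41, standard error 0.20, edgeR adjusted p = 0.000154). The others were Rps15a (1.29), Rpl10 (1.46), Rps3 (1.43), Rps13 (1.36) and Rpl27a (1.35), with edgeR adjusted p from 0.000144 to 0.000352. The whole stalk was called here, since Rplp0 rose by 1.56 (351, 278 and 257 CPM in sham and 630, 1109 and 865 in MI) and Rplp1 by 0.75. So were both carriers of 5S RNA, Rpl5 by 1.5 and Rpl11 by 0.77.

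By subunit, 22 of 32 small subunit members rose and 0 fell, and of 51 large subunit members 27 rose and 5 fell. Of all genes 34.3% rose and 32.0% fell. The subunits were not tested against each other. The members that fell were Rpl3l, Rpl32l, Rpl38, Rpl21 and Rpl36, of which Rpl3l and Rpl32l rest on the low counts given below. Rpl38 had 1291, 636 and 650 CPM in sham and 298, 221 and 192 in MI, all MI livers below all sham livers (-1.86, standard error 0.33, edgeR adjusted p = 0.000566). Rpl36 had 650, 304 and 393 CPM in sham and 213, 187 and 147 in MI (-1.30, standard error 0.30, edgeR adjusted p = 0.00298). Rpl21 had 356, 382 and 333 CPM in sham and 189, 156 and 162 in MI (-1.08, standard error 0.20, edgeR adjusted p = 0.000913). These 3 also fell on total counts (-2.49, -1.94 and -1.72) and in the thinned libraries (-2.01, -1.5 and -1.26). Between coding length and fold change Spearman's rho was 0.30 over 82 members here, against -0.14 over 12210 other genes of any length. Pearson's r with the log2 of the length was only 0.11 over the members. The mean log2 CPM of long members less that of short ones was 0.04, 0.36 and 0.11 in sham and 0.17, 0.66 and 0.67 in MI, which overlap.

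The 12 hour livers and the HMRKO livers at 1 day share no mouse, so the responses to MI could be set beside each other. Of the 23 members that rose in HMRKO at 1 day, 21 (91.3%) also rose at 12 hours, which is 42.9% of the 49 that rose at 12 hours. Among other genes the shares were 67.1% and 44.3%. Over 81 members tested in both, Spearman's rho of the fold changes was 0.73 (0.52 over 11457 other genes) and 63 had the same sign (77.8%, against 68.2% of other genes). Rpl7l1 and Rpl10a rose in HMRKO only by the test, with 0.30 (adjusted p = 0.212) and 0.50 (adjusted p = 0.0779) at 12 hours. Between LC at 1 day and the 12 hour livers rho was -0.08 over 81 members, and between LC and HMRKO at 1 day it was 0.05 over 84. By sign, LC and the 12 hour livers matched about as often as HMRKO and the 12 hour livers. In that LC pair 62 of 81 members were above 0 in both, 0 below 0 in both and 19 opposite. Between LC and HMRKO 55 of 84 were above 0 in both, 3 below 0 in both and 26 opposite. These too are descriptions across genes, and the 12 hour mice carried no engineered allele.

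**Figure D5:**
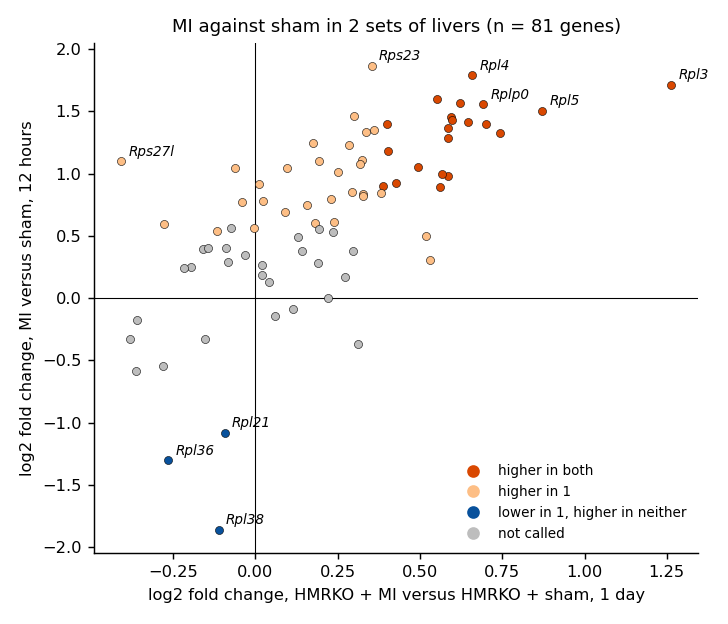
Log2 fold change of 81 members after MI in HMRKO livers at 1 day (x axis) against that in C57 livers at 12 hours (y axis), coloured by edgeR call. 21 members were called higher in both, with Rpl3 farthest to the right. Rpl38, Rpl36 and Rpl21 were lower at 12 hours, and Rps27l was lower at 1 day and higher at 12 hours. On total counts alone 4 members were called higher in HMRKO at 1 day (14.1% of all genes) and 18 at 12 hours (16.9%).

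Several members form pairs with a paralog of like symbol, and in some pairs 1 protein can replace the other in the ribosome of some tissues. Rpl3l, the striated muscle paralog of Rpl3, was barely detected in 1 day livers, with 0.0346 to 0.377 CPM in all 12. At 12 hours it had 24.2, 25.3 and 20.8 CPM in sham and 1.19, 0.483 and 0.545 in MI (log2 fold change -4.96, standard error 0.36, edgeR adjusted p = 4.34e-06), while Rpl3 had 129, 113 and 99.7 in sham and 219, 475 and 425 in MI (1.71, standard error 0.30, edgeR adjusted p = 0.00053). The values of the pair thus differed in opposite directions at 12 hours. Rpl3l rested on 41, 64 and 60 counts in the shallow sham libraries and 17, 7 and 8 in MI, and depth and operation cannot be told apart there. Rpl32l, listed only in the 12 hour table, had 11.8, 11.1 and 6.25 CPM in sham and 0.14, 0.138 and 0.272 in MI (-5.59, standard error 0.48, edgeR adjusted p = 7.83e-06). It rested on 20, 28 and 18 counts in sham and 2, 2 and 4 in MI, under the same limit. Rpl22l1, the paralog of Rpl22, had 47.3, 43.3 and 33.3 CPM in HMRKO + sham and 66.3, 66.2 and 53.3 in HMRKO + MI and rose by 0.58 (standard error 0.16, edgeR adjusted p = 0.0111), whereas Rpl22 had 111, 97 and 96.5 against 108, 96.5 and 93.4 (-0.03, adjusted p = 0.854). At 12 hours Rpl22l1 rose by 0.98 (adjusted p = 0.00601) and Rpl22 stood at 0.35 (adjusted p = 0.18).

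Rpl7l1 rose by 0.53 in HMRKO after MI (standard error 0.15, edgeR adjusted p = 0.0111), and Rpl7 stood at 0.10 there (adjusted p = 0.58), while at 12 hours Rpl7 rose by 1.04 and Rpl7l1 stood at 0.30. Rps4x rose by 0.55 in HMRKO after MI (adjusted p = 0.0388) and by 1.60 at 12 hours, and Rps4l stood at -0.02 in HMRKO. Rps27, next to Rps27l, stood at 0.30 in HMRKO (adjusted p = 0.187) and rose by 1.46 at 12 hours, when Rps27l also rose, by 1.10. Rpl36al was among the members lower in HMRKO + MI than in LC + MI (-0.44, adjusted p = 0.0431), where Rpl36a stood at -0.15. At 12 hours neither was called (0.39 and 0.56). Rpl39 was called at 12 hours alone, with 1.10. Rpl39l and Rpl10l stayed at or below 0.301 CPM in every 1 day liver. No difference between the members of a pair was tested.

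Genes that act around the ribosome were counted by lists. In HMRKO + MI versus HMRKO + sham 37 of 54 ribosome biogenesis factors rose (68.5%, against 22.0% of all genes) and 1 fell (1.85%, against 21.7%), with a median of 0.71, and 6 of 14 RNA polymerase I subunits and factors rose (42.9%) and 1 fell (7.14%). Ltv1, a factor of small subunit export, rose by 1.42, the GTPase Gnl2 by 1.41 and the nucleolar helicase Ddx21 by 1.52. Against LC + MI, 33 of 54 were higher (61.1%, against 14.6% of all genes) and 1 lower (1.85%, against 16.2%), with a median of 0.61, where the ribosomal protein genes had 4 and 11 and a median of -0.12, and in the interaction 21 passed upward (38.9%, against 6.74%) and 0 downward (against 8.50%). In LC + MI versus LC + sham 1 of 54 rose (1.85%, against 2.68%, so not above the background), Gnl2 by 0.67 (edgeR adjusted p = 0.0336), and in the sham livers none was called. At 12 hours 32 of 55 rose (58.2%, against 34.3% of all genes) and 14 fell (25.5%, against 32.0%), among them Dkc1 at -3.19, and of 14 genes of RNA polymerase I 4 rose (28.6%) and 6 fell (42.9%).

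Of 17 translation factors and other messages with a TOP tract, 10 rose (58.8%, against 22.0% of all genes) and 1 fell (5.88%, against 21.7%) in HMRKO after MI, with a median of 0.54. Those with the smallest p were Nap1l1 (0.86), Hnrnpa1 (1.5) and Pabpc1 (0.91). None was called in LC, 10 were higher (58.8%, against 14.6%) and 1 lower (5.88%, against 16.2%) in HMRKO + MI than in LC + MI, and at 12 hours 13 rose (76.5%, against 34.3%) and 2 fell (11.8%, against 32.0%). Of the mTOR pathway and translation control, 6 of 21 rose (28.6%, against 22.0% of all genes) and 5 fell (23.8%, against 21.7%) in HMRKO after MI, close to the background. Deptor, an inhibitor of mTOR, fell by 1.47, and Ddit4, which restrains mTOR complex activity, rose by 2.72. Deptor was also the only called gene of this list in LC, at -0.99 (edgeR adjusted p = 0.00838). The protein genes of the mitochondrial ribosome, which are named Mrpl and Mrps, went down more often than up in both comparisons of HMRKO + MI: 28 of 78 fell (35.9%, against 21.7% of all genes) and 7 rose (8.97%, against 22.0%) in HMRKO after MI, with a median of -0.16, and 24 were lower (30.8%, against 16.2%) and 8 higher (10.3%, against 14.6%) in HMRKO + MI than in LC + MI. Their summed CPM was 2172 to 2227 in HMRKO + MI and 2445 to 2689 in the other 1 day groups. At 12 hours 38 of 78 rose (48.7%, against 34.3%) and 14 fell (17.9%, against 32.0%). Lists were described by counts and medians and were not tested against each other.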

How the data were processed

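The table the authors deposited for the 1 day livers holds raw counts of reads by Ensembl gene. Their table for the 12 hour livers, by Entrez gene, holds 3 values per liver that the authors derived from the reads: the estimated count, the FPKM and the TPM. The deposited FPKM values, which the authors scaled for length and depth, did not enter any test. The deposited TPM values, scaled by the authors to a fixed total per library, served for levels per length and 1 alternative test. Tools named in the submitters' processing notes are HISAT2 2.1.0, Bowtie2 2.2.3, DESeq2 and TopHat2, with mm9 as the build. Which tool made which values, how reads were counted, and whether strand was used are points not given in the sources used here. Tissue is described as flash frozen in the labels and as kept in RNAlater in the study's methods. Every column of values was mapped to a sample (0 were not).

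Counts were analysed in R 4.3.3 with edgeR 4.0.16, the estimated counts after rounding. Genes were kept by filterByExpr (minimum count 10, minimum total 15), TMM scaled the libraries, and 1 term per group entered a quasi-likelihood model fitted to the 12 livers at 1 day and, separately, to the 6 livers at 12 hours, since the tables were counted separately. Benjamini-Hochberg adjustment ran over every gene tested in a table. A member was called at an adjusted p under 0.05 at any fold, and the rule that adds an absolute log2 fold change over 1 is an alternative. The standard error is the absolute log2 fold change over the square root of F. CPM are TMM scaled. Coding lengths are those of the longest coding sequence in the GENCODE M21 basic annotation. The fits were tested on simulated data.

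Members named were the 6 of highest mean TPM, up to 8 called members of smallest p per direction and comparison (otherwise the 3 of smallest p), tested paralogs, members passing the interaction, and up to 3 called genes per pathway list; Rplp1, Rpl11, Rps6 and Rpl29 were added after their values were seen. The members and lists were chosen with earlier results of these data known. Alternatives used DESeq2 1.42.0 and limma 3.58.1 (pseudocount 1), other scalings and filters, a replicate block and each library left out. Scaling by total counts, thinning and scaling without Gm20594 were added after seeing the data. Some genes that the rule names are not reported here.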

Additional observations from a re-analysis of the deposited data

Results flagged for a closer look

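Rpl3 differed between the genotypes in its response to MI, with a log2 fold change 1.18 higher in HMRKO than in LC livers by the interaction term (edgeR adjusted p = 0.0381). The call was lost in 9 of 20 alternatives. It was the only 1 of 84 members to pass upward, where 6.74% of all genes did.

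In 4 other members, every MI liver lay on one side of every sham liver in one set and on the opposite side in another. Over all genes, groups did not overlap in 12.6% upward and 12.1% downward in LC, 28.2% and 27.5% in HMRKO, and 37.8% and 34.0% at 12 hours. How many of all genes had opposite sides in this way was not counted, so the 4 are not set apart from other genes. Rpl41 had log2 fold changes of -0.23 in LC and 0.27 in HMRKO at 1 day, and the interaction gave 0.50 (edgeR adjusted p = 0.0843), which did not pass. Rpl38 had 0.49 in LC at 1 day and -1.86 at 12 hours. Rpl29, a large subunit member, had -0.20 in HMRKO at 1 day and 0.25 at 12 hours. Rps27l had -0.41 in HMRKO at 1 day and 1.10 at 12 hours. The differences between 1 day and 12 hours were not tested, since the tables were counted separately.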

How the results depend on the processing

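The median log2 fold change of the members kept its sign under all alternatives except in the interaction (main 0.02), where it was -0.0219 on total counts and between -0.0784 and 0.100 without any 1 library. Requiring also a 2-fold change gave 0 above and 0 below LC + MI in HMRKO + MI, 1 and 0 in HMRKO + MI versus HMRKO + sham and 29 higher at 12 hours. At an unadjusted p under 0.05, 13 were higher in LC after MI, 8 above and 22 below LC + MI in HMRKO + MI, 3 lower in HMRKO after MI, and 7 and 5 passed the interaction. In the next counts, brackets hold the share of all genes called the same way. DESeq2 called 3 higher in LC (4.54%), 18 lower in HMRKO + MI versus LC + MI (17.6%), 3 lower in HMRKO after MI (22.9%) and 5 higher in the interaction (8.83%). Without the filter on low counts 6 were lower in HMRKO + MI versus LC + MI (9.63%) and 0 in HMRKO after MI (13.0%). A mean count of at least 10 gave 1 higher in LC (2.90%), and a fit of only the groups compared gave 5 lower in HMRKO + MI versus LC + MI (14.4%). On total counts 2 were higher in HMRKO + MI versus LC + MI (8.64%), and 4 higher (14.1%) and 5 lower (26.3%) in HMRKO after MI. The interaction then had 0 (3.41% upward, 8.75% downward), and at 12 hours 18 were higher (16.9%) and 12 lower (44.8%). At 12 hours limma on log2(TPM + 1) gave 23 higher (18.1%) and 12 lower (43.2%). In each case the cause was not tested. Without any 1 library the numbers higher and lower were 0 to 2 and 0 in LC, 1 to 4 and 0 to 14 in HMRKO + MI versus LC + MI, 7 to 25 and 0 to 3 in HMRKO after MI, 0 to 2 and 0 in the interaction, 0 and 0 between the sham groups, and 42 to 54 and 5 to 7 at 12 hours. Of all genes, 8.21 to 15.4% were then higher and 9.40 to 16.8% lower in HMRKO + MI versus LC + MI. In HMRKO after MI the shares were 17.5 to 23.1% and 17.7 to 22.6%, and at 12 hours 29.6 to 37.7% and 27.0 to 34.1%. For single named members, 715 values under alternatives kept direction and side of the threshold, 86 lost the call, 7 gained it and none changed sign. Correlations of same-numbered livers were mixed, from -0.14 to 0.18. They were over 0.1 for 2 pairs of LC + MI and LC + sham, and all 3 pairs of HMRKO + MI and LC + MI correlated best with their own number, a hint from the data at values under 0.1. Since not every pair was over 0.1 and no label gives a shared origin, the numbers were not taken as pairs. With a replicate block 0 were called in LC, 3 above and 9 below LC + MI in HMRKO + MI, 17 higher and 1 lower in HMRKO after MI, 1 in the interaction (Rpl3), and 50 and 6 at 12 hours. At 12 hours the depth of the sham libraries limits members of low count.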
